A study of Homo sapiens with 15 samples.

Results

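The 3′ end of the 7S DNA was examined in the mitochondrial genome of K562, an established human chronic myeloid leukemia cell line. It was taken as every deposited mitochondrial position from 16025 to 16200 on both strands, in the numbering of the deposited files. This window begins at the first position of the non-coding region (NCR) after the tRNA gene MT-TP and holds 352 combinations of position and strand. Termini were present at 348 of them in at least 1 sample, namely 176 on the H (heavy) strand and 172 on the L (light) strand, out of 32390 in the whole mitochondrial genome. Crosslinked nuclei, with which mitochondria co-purify, were incubated with 0.01, 0.1, 1 or 10 U of nuclease P1, an enzyme that cuts single-stranded DNA. Wild-type K562 nuclei left without P1 served as the control. Each of the 5 groups had 3 biological replicates, and crosslinking, lysis and library preparation were shared by all of them. SSiNGLe-P1 adds an A tail to free 3′-OH ends, so that each read gives the position and strand of a 3′ terminus. Mitochondria were not purified, so termini of intact mitochondria, of free mitochondrial DNA and of unbroken cells could not be told apart.

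In the D-loop the third strand, a short one called 7S DNA, lies on the L strand and displaces the parental H strand. It is a nascent H strand whose synthesis starts near the H-strand origin and stops near the termination-associated sequence (TAS), close to MT-TP. Synthesis runs toward lower positions, so a 7S DNA that ends below the main end is longer and one that ends above it is shorter. H-strand termini can also be breaks or P1 cuts in the parental H strand. Counts per strand cannot tell these from 7S DNA ends. The 7S DNA has a natural 3′-OH end and is therefore detected without P1. An RNA strand is also known to pair in this part of the genome.

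The stretch below shows the TAS-like motif next to which the third strand is known to end. It is from the mitochondrial sequence supplied with GRCh37 (chrM:16027-16161, plus strand, 135 bases), and the capitals mark the fixed letters of the motif ATGNNNNNNNNNCAT.

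control region stretch: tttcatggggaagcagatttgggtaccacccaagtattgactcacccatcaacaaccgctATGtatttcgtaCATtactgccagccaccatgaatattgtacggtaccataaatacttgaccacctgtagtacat

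The motif reads the same on both strands. It occurred 6 times in the 16569 bases of that sequence and 1 time after MT-TP (15956 to 16023), at 16087 to 16101 and 63 bases past the end of the gene. Of all windows of 135 bases in that sequence, 4.42% held it. The deposited files number 16571 positions, so positions on the 2 sequences can differ by some bases, and the termini were not laid over these letters. For orientation, the highest H-strand position of the data lay 82 bases past the first position of the window. Because the added tail consists of A and the matching T of the reads were trimmed, an end next to genomic A can be placed a few bases away from its true position.

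The samples held 29622 to 692989 mitochondrial termini, of which 4958 to 553199 lay on the H strand of the window and 210 to 1024 on its L strand. The 10 U samples were the shallowest, with 42899, 57127 and 29622 mitochondrial termini. Shares are given in percent of all mitochondrial termini of a sample, as mean ± SD (n = 3). A lower share can reflect fewer termini in the window or more elsewhere, and shares cannot tell these apart. Differences across the 5 P1 amounts were tested with an exact permutation test of log2 values within replicate numbers (14400 arrangements, smallest possible p 6.94e-05), with Benjamini-Hochberg adjustment over 9 tests. With 3 pairs, the smallest exact p for any 2 amounts alone is 0.25 (two-sided), so single amounts are described by their values.

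Without P1, position 16107 was the highest H-strand position of the window, and it remained the highest in each of the 15 samples. It held 33.2, 31.6 and 33.4% of all mitochondrial termini in the 3 untreated samples. The next positions were 16108 with 15.3 ± 0.594%, 16106 with 6.12 ± 0.763% and 16109 with 3.65 ± 0.566% (SD, n = 3 each). Outside these, position 16112 came next with 1.05 ± 0.144%. The 5 positions from 16105 to 16109 are called the main peak, and 16107 its mode.

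The peak was much steeper on its lower side, where a longer 7S DNA would end, than on its upper side. In the untreated samples position 16104 held 0.050 ± 0.0117% and position 16103 0.00180 ± 0.000763%, so that the mode was 667 and 19216 times these levels. On the other side, position 16110 held 0.771 ± 0.0914% and position 16112 was only 31.4 times below the mode. The lower flank of the main peak (16025 to 16104) held 0.395 ± 0.0806% and the upper flank (16110 to 16200) 6.85 ± 0.669% without P1 (SD, n = 3 each). Thus 5.43 ± 0.786% of the flanking H-strand termini lay on the lower side. The mode was still 9215 times the level of 16103 after 1 U, and at 16103 there were 0 of 129648 termini over the 3 samples of 10 U, which allows a share of up to 0.00231% (3 termini, counting error only).

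**Figure D1:**
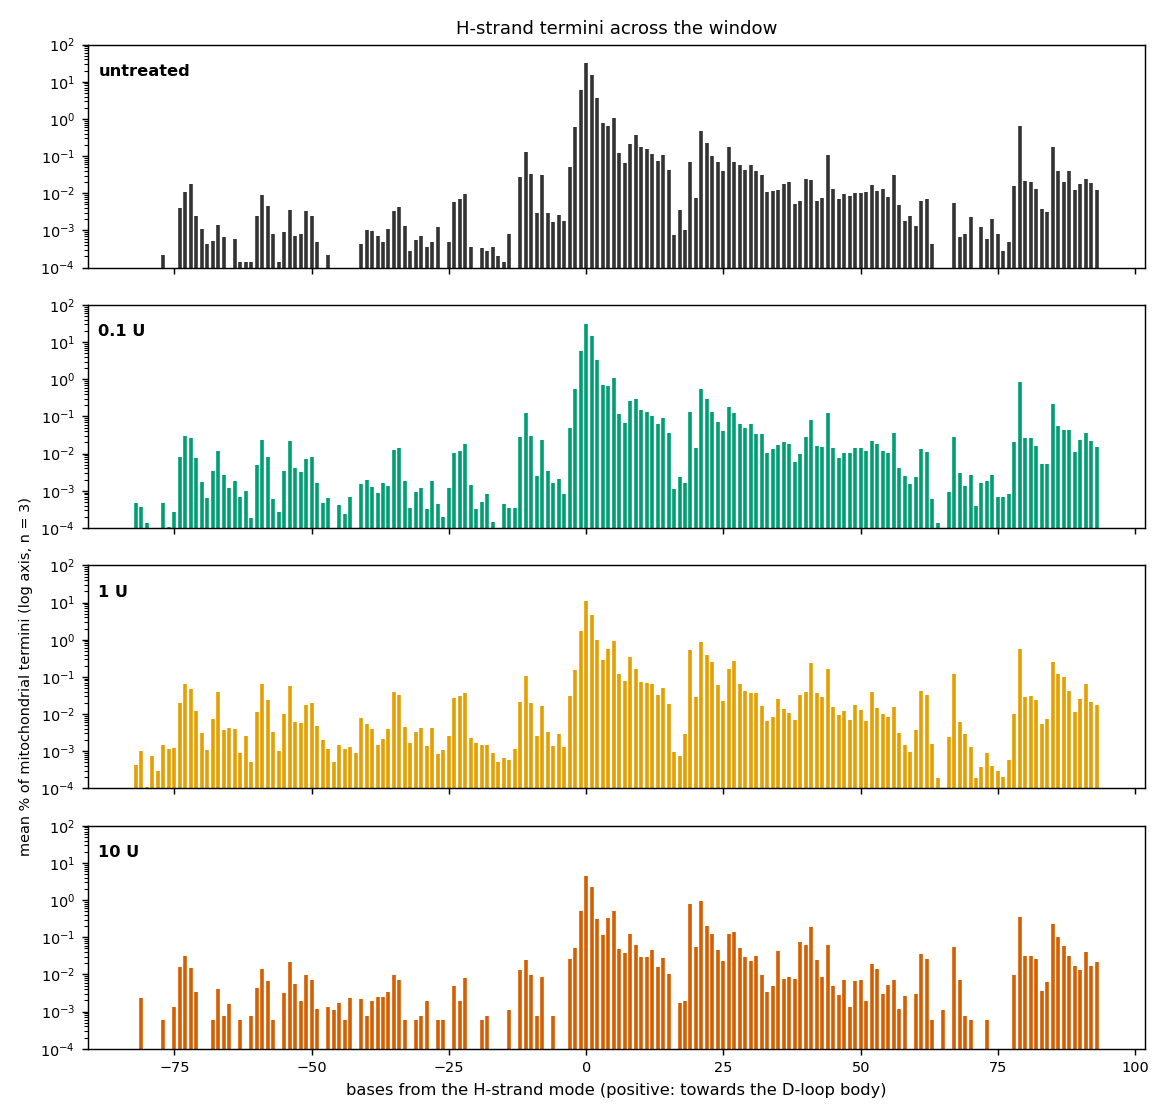
H-strand termini at each position of the window, as the mean percent of all mitochondrial termini (log axis, n = 3), for untreated samples and 0.1, 1 and 10 U of P1, against the distance in bases from position 16107. The main peak stands at 0 in all 4 panels with a steep lower edge and a long upper shoulder, and it drops from 32.7% to 4.49% at the mode between untreated and 10 U while the peaks at +19, +21 and +41 stand out more.

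The H-strand share of the whole window was close to the untreated level at the lowest P1 amounts and much lower at the highest. It was 64.1, 65.0 and 67.7% in the untreated samples, 64.0, 70.0 and 80.0% after 0.01 U and 61.0, 68.1 and 61.0% after 0.1 U. After 1 U it was 27.3, 28.1 and 26.2%, and after 10 U 12.9, 10.9 and 16.7%. All samples of 1 and 10 U lay below all samples of the other 3 groups. The share was 0.414 times the untreated value after 1 U and 0.203 times after 10 U. Here and below, such factors of shares and ratios are geometric means of the ratios within replicate numbers, not ratios of group means. The shares differed between amounts in the exact permutation test (adjusted p = 0.000875). The size depended on the total. The factors were 0.220 and 0.0890 with termini outside the NCR as total, and 0.573 and 0.0268 with nuclear termini, a total chosen after seeing the data. Without replicate 1 the latter were 0.298 and 0.0131. The group means per 1000000 nuclear termini were 91695 without P1, 37851 after 1 U and 1758 after 10 U.

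Most of this difference lay in the main peak, and the upper flank as a sum stayed between 0.820 and 1.15 times its untreated level. This sum covered opposite changes. After 10 U, 16 of its 77 tested positions were called higher and 24 lower (edgeR test described below), against 35.1% and 3.63% of all positions. Next to the main peak, the edgeR folds over untreated were 0.149 at 16110 and 0.166 at 16116, while 16126 was 11.3 times. The main peak held 58.4 ± 1.22% of all mitochondrial termini in untreated samples, 63.3 ± 7.54% after 0.01 U, 55.2 ± 4.30% after 0.1 U, 18.5 ± 1.46% after 1 U and 7.56 ± 1.93% after 10 U (SD, n = 3 each). The upper flank held 6.85 ± 0.669, 7.61 ± 0.552, 7.55 ± 0.395, 7.85 ± 0.766 and 5.66 ± 1.01% in the same order. Without the main peak, the H-strand share of the window was 1.20 times the untreated value after 1 U and 0.816 times after 10 U. The value after 1 U was thus opposite in direction to the whole window. The share without the main peak differed between amounts (exact permutation test over all amounts, p = 0.00493). That test does not compare 1 U with untreated alone. In percent of the window's H-strand termini, the main peak held 89.0 ± 0.824% in untreated samples, 88.8 ± 0.473% after 0.01 U, 87.2 ± 1.18% after 0.1 U, 67.8 ± 3.95% after 1 U and 55.7 ± 1.93% after 10 U (SD, n = 3 each). This share differed between amounts (exact permutation test, adjusted p = 0.000875), and the samples of 1 and 10 U lay below all others.

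With the main peak included, the H-strand termini of the window were spread over more positions after 1 and 10 U of P1. The effective number of positions is the number of equally used positions that would give the same diversity, computed here with every sample thinned to 4958 window termini. It was 5.57 ± 0.365 in untreated samples, 5.54 ± 0.178 after 0.01 U, 6.03 ± 0.279 after 0.1 U, 12.7 ± 1.46 after 1 U and 16.0 ± 0.863 after 10 U (SD, n = 3 each). Its adjusted p in the exact permutation test was 0.00115. Outside the main peak, with samples thinned to 2088 termini, the means were 29.2 without P1, 40.1 after 1 U and 30.8 after 10 U. There the number after 10 U was thus close to the untreated one and below that after 1 U. The order of positions inside the main peak was the same in all groups, with 16107 highest and 16108, 16106 and 16109 following in this order. The mode took 56.0 ± 1.42% of the main peak without P1 and 59.4 ± 0.483% after 10 U, a difference of 1.06-fold across which the exact permutation test gave an adjusted p of 0.0156. This test lost its call without replicate 2 (p = 0.258), without replicate 3 (p = 0.192) and without the 10 U samples (p = 0.0573; exact permutation tests). The lower neighbour 16106 took 10.5 ± 1.30% of the main peak in untreated samples and 6.85 ± 1.01% after 10 U (SD, n = 3 each).

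**Figure D2:**
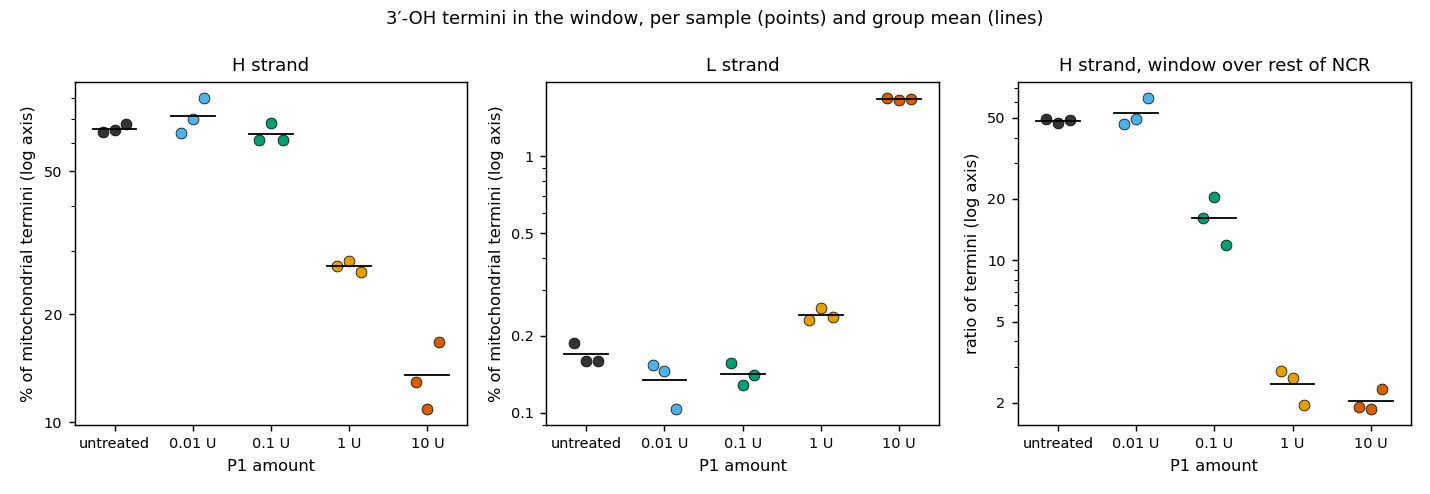
H-strand share and L-strand share of the window in percent of all mitochondrial termini, and the ratio of H-strand termini in the window to those in the rest of the NCR, each on a log axis for the 5 P1 amounts; points are the 3 samples and lines their mean. The H-strand share drops from 65.6% to 13.5%, the L-strand share climbs from 0.169% to 1.67%, and the ratio drops from 48.5 to 2.03.

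Against the rest of the NCR the difference appeared at a lower P1 amount. The window held 48.5 ± 1.11 H-strand termini for each H-strand terminus elsewhere in the NCR without P1 and 52.9 ± 8.60 after 0.01 U. After 0.1 U the ratios were 16.2, 20.4 and 11.9, after 1 U 2.86, 2.64 and 1.94, and after 10 U 1.90, 1.86 and 2.34. All 9 of these samples lay below the untreated samples (exact permutation test over the 5 amounts, adjusted p = 0.000875). The share of the rest of the NCR was 1.35 ± 0.0477% in untreated samples, 4.08 ± 0.942% after 0.1 U, 11.2 ± 2.08% after 1 U and 6.61 ± 0.679% after 10 U (SD, n = 3 each). After 0.1 U the share of the window itself overlapped that of the untreated samples, while the H-strand share of the rest of the NCR was 2.97 times the untreated value.

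Outside the main peak, 13 H-strand positions were secondary peaks in at least 1 group, each being the highest within 5 bases and at least 5 times the median within 20 bases in every replicate of that group. Of these, 6 lay on the lower and 7 on the upper side. The 7 positions that ranked among the 5 highest of any group are followed here. They lay at 16096 on the lower side and at 16128, 16148, 16151, 16174, 16186 and 16192 on the upper side. The other 6 were 16034, 16035, 16048, 16073, 16085 and 16163, with at most 0.0649 ± 0.0220% of mitochondrial termini (16034 after 1 U; SD, n = 3). The untreated profile had 8 secondary peaks, and its highest secondary peak was 16186 with 0.619, 0.580 and 0.724% of mitochondrial termini. The next was 16128 with 0.414, 0.456 and 0.517%. At 1 and 10 U their order was exchanged, and 16128 was then the higher one with 0.871 ± 0.124% and 0.943 ± 0.0744% (SD, n = 3 each). Peaks at 16148 and 16174 met the rule only in the 1 and 10 U profiles, and 16151 only in the untreated, 0.01 U and 0.1 U profiles. Position 16151 lies within 5 bases of 16148, so it cannot meet the rule where 16148 is higher. Its termini were not lost. Per 100 main peak termini it had 0.183 ± 0.0356 without P1, 0.876 ± 0.141 after 1 U and 0.853 ± 0.192 after 10 U (SD, n = 3 each).

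Relative to the main peak, the 5 highest secondary peaks of the untreated samples (16096, 16128, 16151, 16186 and 16192) differed between amounts (exact permutation tests chosen after seeing the data, adjusted p from 0.00081 to 0.00222 over 7 tests). The main peak itself was 0.316 times its untreated share after 1 U and 0.127 times after 10 U. A position whose share fell less than this therefore has a higher ratio, and these tests cannot separate the 2. Positions 16148 and 16174 entered the list through their level after 1 and 10 U, so their values are a description. Position 16128 had 0.719, 0.790 and 0.865 termini per 100 main peak termini without P1, 3.71, 4.91 and 5.67 after 1 U and 14.0, 14.5 and 10.1 after 10 U. All samples of 10 U lay above those of 1 U, and these above the untreated samples. Position 16148 had 0.0398 ± 0.00554 without P1, 0.146 ± 0.0317 after 0.1 U, 1.32 ± 0.397 after 1 U and 2.60 ± 0.546 after 10 U. For 16174 the values were 0.0139, 0.00703 and 0.00722 without P1, 0.0523, 0.0376 and 0.0639 after 0.1 U, 0.622, 0.486 and 0.819 after 1 U and 0.856, 0.917 and 0.523 after 10 U. This corresponds to 5.63, 70.5 and 83.4 times the untreated ratio, and the samples of 0.1 U lay above all untreated ones. Position 16186 had 1.10 ± 0.105 termini per 100 main peak termini without P1 and 4.79 ± 0.614 after 10 U, and 16192 had 0.297 ± 0.0342 and 3.06 ± 0.308 (SD, n = 3 each). In percent of mitochondrial termini, 16186 went down, with 0.641 ± 0.0747% without P1, 0.553 ± 0.0520% after 1 U and 0.356 ± 0.0548% after 10 U. Position 16192 had 0.174 ± 0.0233%, 0.249 ± 0.0391% and 0.232 ± 0.0710% in the same order (SD, n = 3 each). Position 16096 was the highest secondary peak on the lower side in the untreated samples. It had 0.222 ± 0.0622 termini per 100 main peak termini without P1, 0.589 ± 0.0923 after 1 U and 0.334 ± 0.0817 after 10 U, where its lowest sample held 8 termini. Its share of mitochondrial termini was 0.130 ± 0.0374%, 0.108 ± 0.00957% and 0.0249 ± 0.00665% in the same order (SD, n = 3 each).

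**Figure D3:**
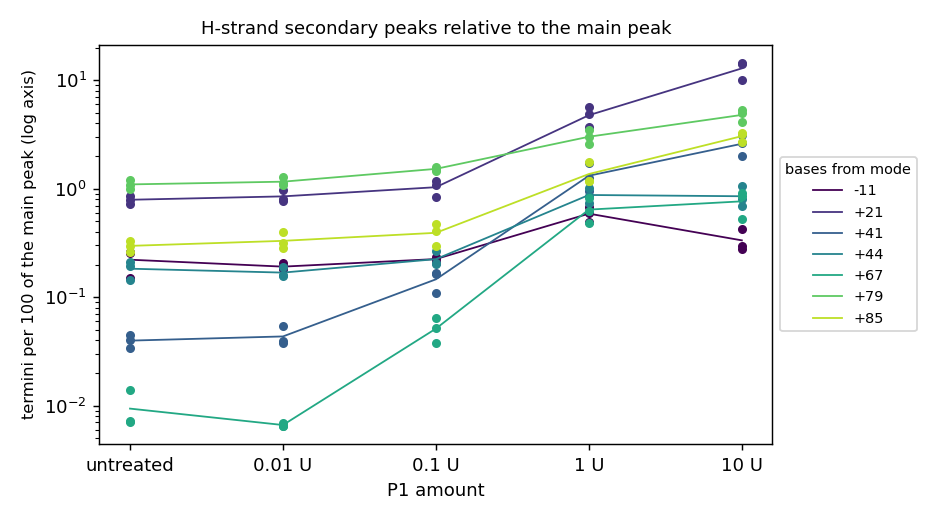
Termini at the 7 secondary H-strand peaks per 100 termini of the main peak (log axis) against the P1 amount; points are samples, lines join the means of 3 samples, and colours give the distance in bases from position 16107. Position +67 (16174) goes from 0.0094 to 0.765 and position +21 (16128) from 0.791 to 12.9 between untreated and 10 U. The ratio at -11 (16096) is highest after 1 U, although its share of mitochondrial termini is not.

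The lower side of the window held few H-strand termini, and its far portion followed another course than the main peak. Positions 16025 to 16074 held 0.0865, 0.0902 and 0.0761% of mitochondrial termini without P1. They held 0.200, 0.193 and 0.279% after 0.1 U, 0.346, 0.680 and 0.625% after 1 U and 0.224, 0.159 and 0.186% after 10 U. Each of these 9 samples was above the 3 untreated samples, and the values were 2.63, 6.28 and 2.23 times the untreated ones. Over H-strand termini outside the NCR, whose share was also above the untreated one, the far lower flank was 1.87, 2.01 and 0.795 times the untreated value. This ratio differed between amounts in a test chosen after seeing the data (exact permutation test, adjusted p = 0.00139 over 3 tests), a call that was lost without replicate 3 (p = 0.0583). Between it and the main peak, positions 16075 to 16104 held 0.311 ± 0.0816% without P1, 0.332 ± 0.0240% after 1 U and 0.105 ± 0.0340% after 10 U (SD, n = 3 each). The share of flanking H-strand termini on the lower side was 5.43 ± 0.786% without P1, 6.71 ± 0.872% after 0.1 U, 10.0 ± 1.32% after 1 U and 4.97 ± 0.945% after 10 U. It differed between amounts (exact permutation test, adjusted p = 0.00634), but not without replicate 2 (p = 0.0917) or replicate 3 (p = 0.125; exact permutation tests).

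The L strand of the window held far fewer termini and moved in the other direction. Its share was 0.187, 0.160 and 0.159% of mitochondrial termini without P1, and the means were 0.134 ± 0.0270% after 0.01 U and 0.142 ± 0.0137% after 0.1 U. After 1 U it was 0.240 ± 0.0142% and after 10 U 1.67 ± 0.0132% (SD, n = 3 each), which were 1.43 and 9.93 times the untreated value. The shares differed between amounts (exact permutation test, adjusted p = 0.000875), and all samples of 1 and 10 U lay above the untreated ones. Of these values the one after 1 U depended on the total used, and it was 0.756 times the untreated value when scaled to termini outside the NCR (4.36 times after 10 U). Scaled to nuclear termini of the same library, a total chosen after seeing the data, the L strand was 1.97 times the untreated value after 1 U and 1.31 times after 10 U, with no call (exact permutation test, p = 0.699). These factors rest on untreated replicate 1, which was low on this scale. Without replicate 1 they were 1.12 and 0.672 (exact permutation test, p = 0.20). The group means per 1000000 nuclear termini were 223 without P1, 335 after 1 U and 223 after 10 U. Against L-strand termini outside the NCR only, the window was 1.98 times the untreated value after 1 U and 5.56 times after 10 U (exact permutation test, chosen after seeing the data, adjusted p = 0.000833). The rest of the NCR had 1.24 and 5.94 times its untreated L-strand share at these amounts.

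The H/L ratio of termini in the window was 391 ± 43.3 without P1, 558 ± 191 after 0.01 U, 451 ± 70.5 after 0.1 U, 113 ± 4.91 after 1 U and 8.09 ± 1.78 after 10 U (SD, n = 3 each; exact permutation test, adjusted p = 0.000875). Counted as unique sites, where each position with a terminus counts once, the ratio was 1.64 ± 0.233, 1.41 ± 0.115, 1.54 ± 0.00640, 1.53 ± 0.0752 and 1.16 ± 0.0586 in the same order (exact permutation test, adjusted p = 0.0156). This difference was lost without the 10 U samples (exact permutation test, p = 0.387) and without replicate 1 or 3. The unique-site ratio also depended on depth. With every sample thinned to 29622 mitochondrial termini it was 3.31 without P1, 3.24 after 1 U and 1.23 after 10 U. After 10 U this was 0.371 times the untreated value instead of 0.712 times (exact permutation test over all 5 amounts, p = 0.000208).

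The L-strand termini were spread over many positions, and more concentrated after 10 U than in the other groups by their mean. In untreated samples the highest L-strand position was 16170 with 0.0169, 0.0190 and 0.0165% of mitochondrial termini, followed by 16086 with 0.00801 ± 0.00280%. The highest L-strand position was 16135 in every sample of 1 and 10 U. It held 0.00535, 0.00427 and 0.00247% without P1, 0.0134, 0.0181 and 0.0187% after 1 U and 0.219, 0.210 and 0.294% after 10 U. All samples of 1 U lay above the untreated samples, and those of 10 U above both. Since 16135 was named for its level at these amounts, its values are a description. Position 16116 held 0.00188 ± 0.00110% without P1 and 0.194 ± 0.0199% after 10 U, and 16113 0.00180 ± 0.000814% and 0.104 ± 0.0206% (SD, n = 3 each). In contrast, 16170 was at 0.0220 ± 0.0111% after 10 U, with a range that included the untreated values. After 10 U the 3 highest L-strand positions together held 32.3 ± 1.32% of the window's L-strand termini, compared with 19.0 ± 3.29% for those of the untreated samples and 17.2 ± 1.93% after 1 U.

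These L-strand positions lay opposite the shoulder of the main peak on its upper side. Positions 16110 to 16149 held 23.3, 20.3 and 14.5% of the window's L-strand termini without P1, 27.1, 32.2 and 32.6% after 1 U and 60.4, 58.5 and 62.8% after 10 U. This share differed between amounts (exact permutation test, chosen after seeing the data, adjusted p = 0.00139 over 3 tests). In percent of mitochondrial termini these positions were 31.7 times the untreated level after 10 U. The other zones of the window were 3.34 times (16150 to 16200), 11.9 times (16105 to 16109), 8.07 times (16075 to 16104) and 3.42 times (16025 to 16074) their untreated levels. Outside the NCR the L-strand share after 10 U was 1.78 times the untreated one.

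**Figure D4:**
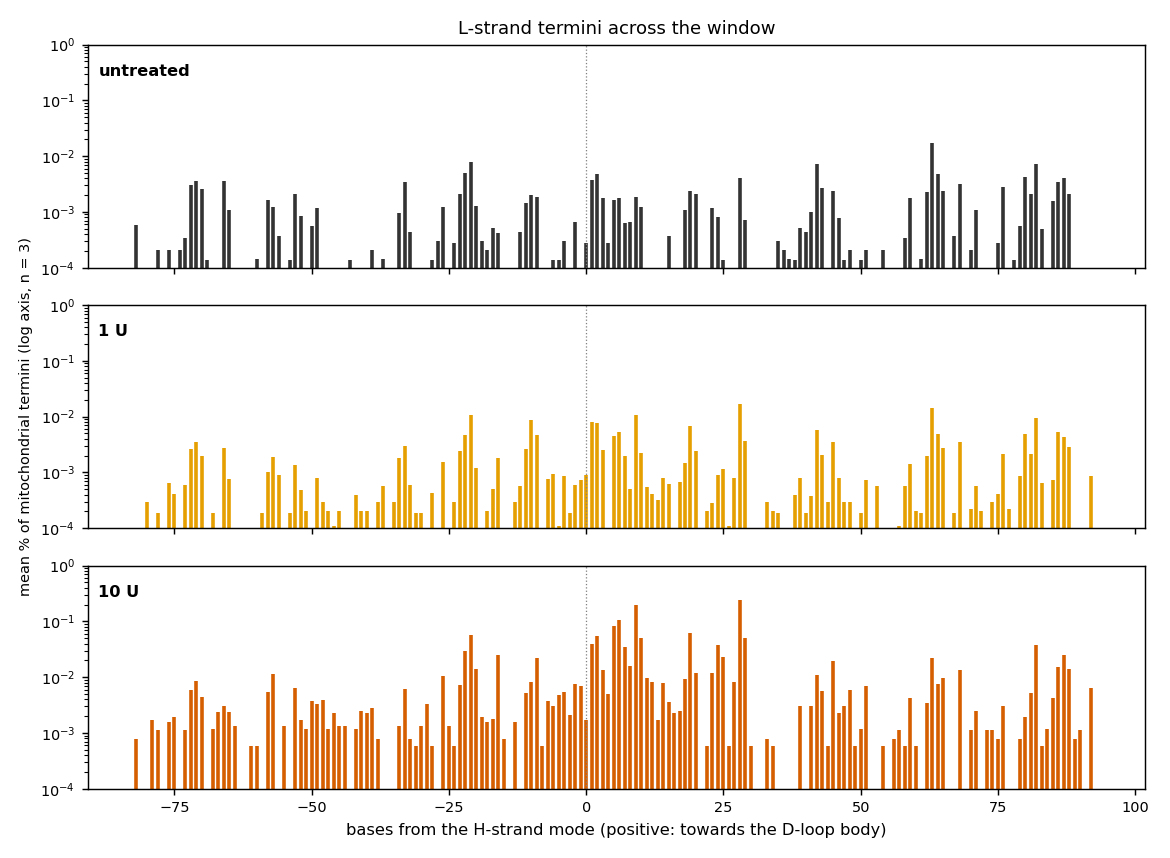
L-strand termini at each position of the window, as the mean percent of all mitochondrial termini (log axis, n = 3), for untreated samples and 1 and 10 U of P1, against the distance in bases from the H-strand mode (dotted line). The highest position is +63 (16170) without P1 and +28 (16135) after 1 and 10 U, and after 10 U the positions from +5 to +29 reach up to 0.241%.

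**Figure D5:**
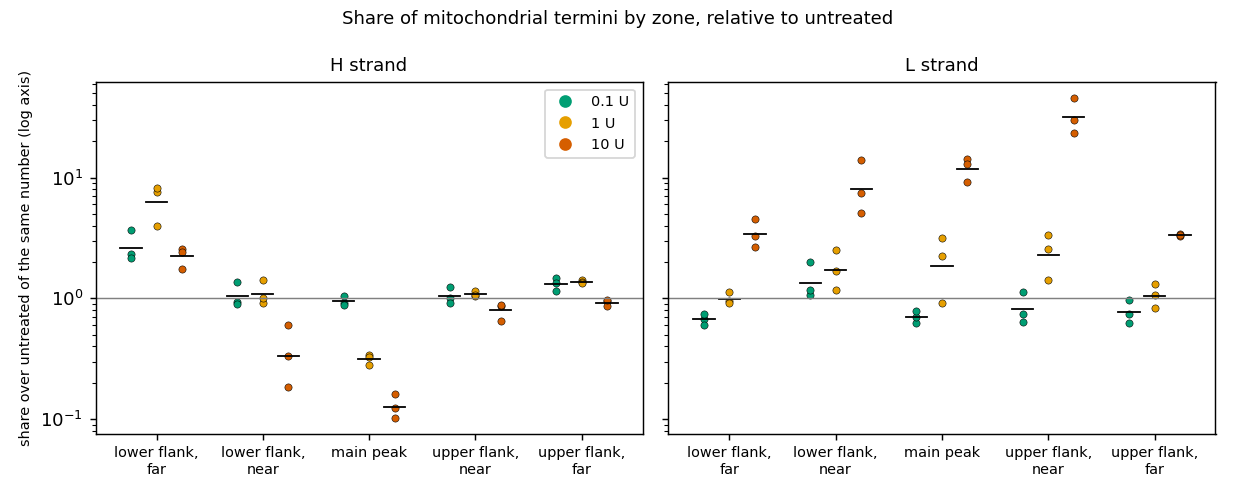
Share of mitochondrial termini in 5 zones of the window at 0.1, 1 and 10 U of P1, divided by its replicate-matched untreated sample (log axis); points are the 3 replicates, short lines their geometric mean and the grey line no change. On the H strand the main peak falls to 0.127 times and the far lower flank is above 1 at all 3 amounts, whereas on the L strand the near upper flank reaches 31.7 times after 10 U.

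Each position was also compared with the untreated samples in a fit of edgeR's quasi-likelihood test over 7161 positions of both strands of the mitochondrial genome, scaled to total mitochondrial termini. In the window 119 of 176 H-strand and 57 of 176 L-strand positions passed its filter on low counts. A position can pass through the group in which it is high, so these are not all positions. After 0.01 U no position was called at an adjusted p of 0.05 in the window or elsewhere (background 0%), also not with DESeq2, while 3 H-strand and 7 L-strand positions of the window had an unadjusted p under 0.05. After 0.1 U 28 H-strand positions were called, all higher, or 23.5% of those tested. Among all positions 24.9% were called, 18.6% as higher and 6.28% as lower. Of these, 19 lay in the lower flank, 9 in the upper flank and none in the main peak. On the L strand only 16175 was called after 0.1 U, lower by 1.30 on the log2 scale (edgeR adjusted p = 0.0453), and this call was absent without filter.

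After 1 U 79 H-strand positions were called, 56 higher and 23 lower, where 50.9% of all positions were called. The higher calls were 47.1% of those tested against 45.8% of all positions, a share near the background. The lower calls were 19.3% of those tested against 5.11% of all positions, and all 5 positions of the main peak were among them. After 10 U 23 H-strand positions were called higher, 19.3% against a background of 35.1%, and 37 lower, 31.1% against 3.63%, with 38.7% of all positions called in either direction. On the L strand 13 positions were called after 1 U and 41 after 10 U, all higher, or 22.8% and 71.9% of those tested against 45.8% and 35.1% of all positions. The background for either strand holds both strands. Outside the NCR the H-strand share was 3.13 times the untreated one after 1 U, and the L-strand share 0.719 times. The percentages therefore do not compare the window with the rest of its own strand. Without the filter 12 and 48 of 172 L-strand positions were called, or 6.98% and 27.9%, all higher. Of 32390 positions in the genome, 4668 and 2429 were then called higher. The scaling set much of the split, since the median of all positions was 0.85 (1 U) and 1.09 (10 U) on the log2 scale with total termini and -0.05 and -0.12 with TMM. Under TMM the H-strand calls were 38 higher and 52 lower after 1 U and 8 higher and 65 lower after 10 U, and the L-strand calls 4 higher and 10 lower after 1 U and 33 higher and 2 lower after 10 U. Over all positions TMM called 2320 higher and 2313 lower after 1 U and 1263 higher and 1343 lower after 10 U, compared with 3277 and 366, and 2513 and 260, with total termini.

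The H-strand positions with the lowest p after 1 U were all higher and lay away from the main peak. Their log2 fold changes with standard errors were 4.57 ± 0.33 at 16174, 3.37 ± 0.27 at 16148, 2.87 ± 0.23 at 16126, 5.33 ± 0.45 at 16040 and 4.17 ± 0.36 at 16053. Their edgeR adjusted p lay between 1.54e-40 and 1.87e-28. Relative to the median of all positions each of these was still higher, with TMM log2 fold changes of 3.66, 2.44, 1.94, 4.44 and 3.27. Position 16126, adjacent to the peak at 16128, held 0.0446, 0.0875 and 0.0751% without P1, 0.390, 0.540 and 0.616% after 1 U and 0.823, 0.739 and 0.807% after 10 U. Position 16040 in the far lower flank held 0.00138 ± 0.00113% without P1, 0.0384 ± 0.0133% after 1 U and 0.00404 ± 0.00268% after 10 U (SD, n = 3 each), thus the highest level after 1 U. Its untreated samples held 0.00267, 0.000853 and 0.000617%, which is near the floor. The size of its fold change is therefore imprecise, and it can have passed the filter through its treated samples. Position 16174 had 9 to 21 termini per untreated sample.

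After 10 U the lowest p belonged to 4 positions of the main peak and to 16126. The log2 fold changes were -3.60 ± 0.19 at 16106, -2.88 ± 0.15 at 16107, -3.57 ± 0.20 at 16109 and -2.81 ± 0.17 at 16108, and 3.50 ± 0.24 at 16126, with edgeR adjusted p from 1.47e-77 to 3.37e-46. With TMM these were -4.86, -4.16, -4.83, -4.10 and 2.24, in the same directions. The positions on either side of the central pair, 16106 and 16109, therefore had a larger decrease than 16107 and 16108 under both scalings, although the difference between positions was not tested.

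On the L strand 16116 and 16135 had the lowest p at both amounts. Position 16116 was higher by 2.68 ± 0.44 on the log2 scale after 1 U and by 6.89 ± 0.41 after 10 U, and 16135 by 2.18 ± 0.36 and 6.01 ± 0.36 (edgeR adjusted p from 3.59e-60 to 1.31e-08). After 10 U 16113, 16112 and 16136 followed with 6.03 ± 0.45, 5.89 ± 0.47 and 6.15 ± 0.56. After 1 U the others were 16097, 16136 and 16113 with 1.90 ± 0.45, 2.41 ± 0.63 and 1.74 ± 0.50, of which 16113 was not called with TMM (edgeR adjusted p = 0.107). The other positions named from this test kept their direction and their call under TMM. The L-strand positions named here had low untreated levels, and those of 16116 and 16113, given above, are near the floor. They can have passed the filter through their treated samples. The sizes of their fold changes are therefore imprecise, and their adjusted p are a description.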

How the data were processed

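The authors selected read pairs whose read 2 starts with a run of T, trimmed it, and aligned the pairs with BWA-MEM (BWA 0.7.12) to the GRCh37/hg19 mitochondrial genome. They deposited, for each sample, a count of 3′ termini per position and strand, and these unscaled counts were used here. Removal of PCR duplicates is not given in the sources used here, so counting precision may be overstated. The plus strand of the files was taken as H, and positions up to 578 and from 16025 on as the NCR. Deposited nuclear counts served only as an alternative total. RPM values, clustered sites and region lists were not used here.

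Shares and ratios were tested with an exact permutation test of log2 values within replicate numbers, as the study pairs treated with untreated replicates. Positions were tested with edgeR 4.0.16 (quasi-likelihood, replicate and amount as terms, total termini as offset; R 4.3.3), with DESeq2 1.42.0 as an alternative. Simulated data at the size of 1 U against untreated (4701 positions) gave back 151 of 182 changed positions tested, and 4.43% of calls were false. The simulation changed 200 positions, equally in both directions and with a fixed spread. In the data 50.9% of all positions were called after 1 U, 45.8% as higher, so this false share does not carry over to them. Positions named are the 5 highest per strand without P1, the highest at each amount, the 5 highest peaks outside the main peak per group, and the 5 called positions with the lowest p per strand at 1 and 10 U. Others were chosen after their values were seen. The window, the lists and the tests were chosen with earlier results of these data known. The sequence comes from the supplied GRCh37 mitochondrial sequence, whose length differs from that of the files. Python 3.11.15 was used.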

Additional observations from a re-analysis of the deposited data

How the results depend on the processing

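Of 221 recomputed values, 196 kept their direction and their side of the threshold, or stayed within 1.5 times for counts of positions. Factors below, and the direction of shares and ratios, are for 1 U over untreated, as geometric means within replicate numbers. All p are from exact permutation tests over the amounts. Leaving out the main peak turned the H-strand share of the window from 0.414 to 1.20, and termini outside the NCR as the total turned the L-strand share from 1.43 to 0.756; per nuclear termini, an alternative added after seeing the data, the L-strand factor was 1.97 (exact p = 0.699), and 1.12 without replicate 1. The H-strand factor with this total, 0.573, was 0.298 to 0.864 with each replicate left out, and its call was lost without replicate 2 (exact p = 0.0583) or 3 (exact p = 0.0833). The ratio of unique sites (0.938) reversed to 1.04 without replicate 1 and lost its call without replicate 3 (0.905) and without the 10 U samples (0.938, exact p = 0.387). The share of the mode (1.05) lost its call without replicates 2 or 3 and without the 10 U samples (1.05, exact p = 0.0573), and the lower-side share of flanking termini (1.85) without replicates 2 or 3. When each replicate was left out in turn, the range was 0.875 to 1.04 for the ratio of unique sites, 1.04 to 1.08 for the share of the mode, and 1.81 to 1.88 for the lower-side share. It was 0.406 to 0.429 for the H-strand share, 1.34 to 1.54 for the L-strand share and 0.0470 to 0.0568 for the ratio to the rest of the NCR, with no lost call. Counted as unique sites, the H-strand share was 0.948 times untreated after 1 U and 1.28 times after 10 U (exact p = 0.0453). At 10 U this was opposite in direction to the share of termini, which was 0.203 times untreated. Among secondary peaks, 16151 lost its call without replicate 1 (4.64, exact p = 0.0583), and so did the far lower flank over termini outside the NCR without replicate 3 (1.84, exact p = 0.0583).

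Counts of called positions by edgeR ranged from 15 to 29 (H strand, 0.1 U), 0 to 1 (L strand, 0.1 U) and 5 to 15 (L strand, 1 U) when single libraries were left out. The H-strand count at 0.1 U, 28 with all libraries, was 18 without untreated replicate 2, 15 without untreated replicate 3 and 18 without 0.1 U replicate 3. The L-strand count at 1 U, 13 with all libraries, was 5 without untreated replicate 2 and 8 at an adjusted p of 0.01. For the L strand at 0.1 U it was 0 at an adjusted p of 0.01, 0 without the filter and 2 with DESeq2. Samples of the same replicate number did not all deviate together (8 of 30 pairs above 0.1, r from -0.427 to 0.583, median -0.0228). Without the replicate block the H-strand share kept its factor of 0.414 (permutation test, p = 6.0e-05) and the edgeR counts were 28, 77 and 59 on the H strand and 1, 14 and 41 on the L strand at 0.1, 1 and 10 U, and none of the 9 permutation tests lost its call.

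Depth limits the L strand most, with 210 L-strand termini in the window of the shallowest untreated sample, and the 10 U samples on both strands.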

Other observations

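Per 1000000 nuclear termini of the same library, the H strand of the window had 16913, 126286 and 131886 termini in the 3 untreated samples, so that untreated replicate 1 stood well below the others on this scale, while its share of mitochondrial termini did not. The values were 132026, 121586 and 194785 at 0.01 U, 76078, 134019 and 141000 at 0.1 U, 35657, 44754 and 33143 at 1 U and 1884, 1597 and 1793 at 10 U. All samples of 10 U lay below all other samples also on this scale. The L strand had 49.4, 310.5 and 310.3 termini per 1000000 nuclear termini without P1 and 245.6, 243.6 and 178.6 at 10 U.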
